A study of Sus scrofa with 6 samples.

Results

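Matricellular proteins are secreted into the extracellular matrix but serve as signals between matrix and cells rather than as structural fibers. The 10 genes described here are *POSTN*, *SPARC*, *SPARCL1*, *THBS1*, *THBS2*, *THBS4*, *TNC*, *CCN1*, *CCN2*, and *SPP1*. They were taken by their gene name, and all 10 were found among the 13288 genes of the deposited expression table. RNA was sequenced from ventricular tissue of Tibetan minipigs. The DAC group (n = 3, replicates 4 to 6) underwent descending aortic constriction, which raises the pressure load on the left ventricle. The sham group (n = 3, replicates 1 to 3) had the chest opened in the same way, with the aorta left unconstricted. Tissue was collected 12 weeks after surgery, the samples of a group are labelled as independent, and the minipigs were males of one breed whose age is not given in the sources used here. Expression is in FPKM, fragments normalized to transcript length and to all mapped fragments of the library, so that levels can be compared between genes per length. Group differences were tested on log2(FPKM + 1) with the moderated test of limma over the 11029 genes that reached 1 FPKM in 3 or more samples. A differentially expressed gene (DEG) was one with an unadjusted *P* under 0.05. No gene reached an adjusted *P* under 0.05 (limma, Benjamini-Hochberg), while 939 genes, 8.51% of those tested, were DEGs.

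In the healthy adult heart most matricellular genes are expressed at low levels, and they are known to be induced in fibroblasts and other cells after injury or mechanical load. Periostin and tenascin-C mark activated fibroblasts and matrix under reconstruction. SPARC binds collagen and assists its assembly, the thrombospondins bind calcium, collagen, and growth factors, and the CCN proteins are early products of growth factor and stretch signaling. Osteopontin, encoded by *SPP1*, is an integrin ligand secreted by macrophages and other cells.

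*POSTN* was the only DEG among the 9 members tested, against 3.25% of all genes tested that were upregulated DEGs. *POSTN* encodes periostin, an integrin ligand that promotes cross-linking of collagen. It was at 1.69, 2.68, and 2.48 FPKM in sham replicates 1 to 3, and at 4.65, 4.62, and 3.76 FPKM in DAC replicates 4 to 6. All DAC minipigs were above all sham minipigs. The mean was 2.28 ± 0.520 FPKM (SD, n = 3) in sham minipigs and 4.34 ± 0.507 FPKM (SD, n = 3) in DAC minipigs, a ratio of 1.90. The log2 fold change of *POSTN* was 0.71 (95% confidence interval 0.35 to 1.07, unadjusted *P* = 0.00218, adjusted *P* = 0.408, limma). *POSTN* remained a DEG in each of the 13 alternative analyses that kept the gene, with a log2 fold change from 0.58 to 0.92 and an adjusted *P* from 0.358 to 0.774. The gene lies on chromosome 11 from 13182272 to 13259019 on the minus strand of susScr11. The gene ENSSSCG00000047188 on the plus strand overlaps it and was listed at 0.726 to 1.36 FPKM, not far below *POSTN* in the sham group. The sources used here do not give the use of strand, so reads in the shared stretch cannot be assigned to either gene alone. Among 10 markers of fibroblasts, the usual source of periostin, 4 were upregulated DEGs, namely *LUM* and 3 collagen genes, and 6 were not DEGs. The summed level of the 10 markers was 567 to 648 FPKM in the sham group and 769 to 903 FPKM in the DAC group. Without the collagen genes, a sum added after seeing the data, it was 256, 263, and 293 FPKM in sham replicates 1 to 3 and 230, 268, and 402 FPKM in DAC replicates 4 to 6, so that the groups overlapped. The part of fibroblast number in the *POSTN* difference was not tested. In bulk tissue, more cells of a type and more RNA per cell cannot be told apart.

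**Figure D1:**
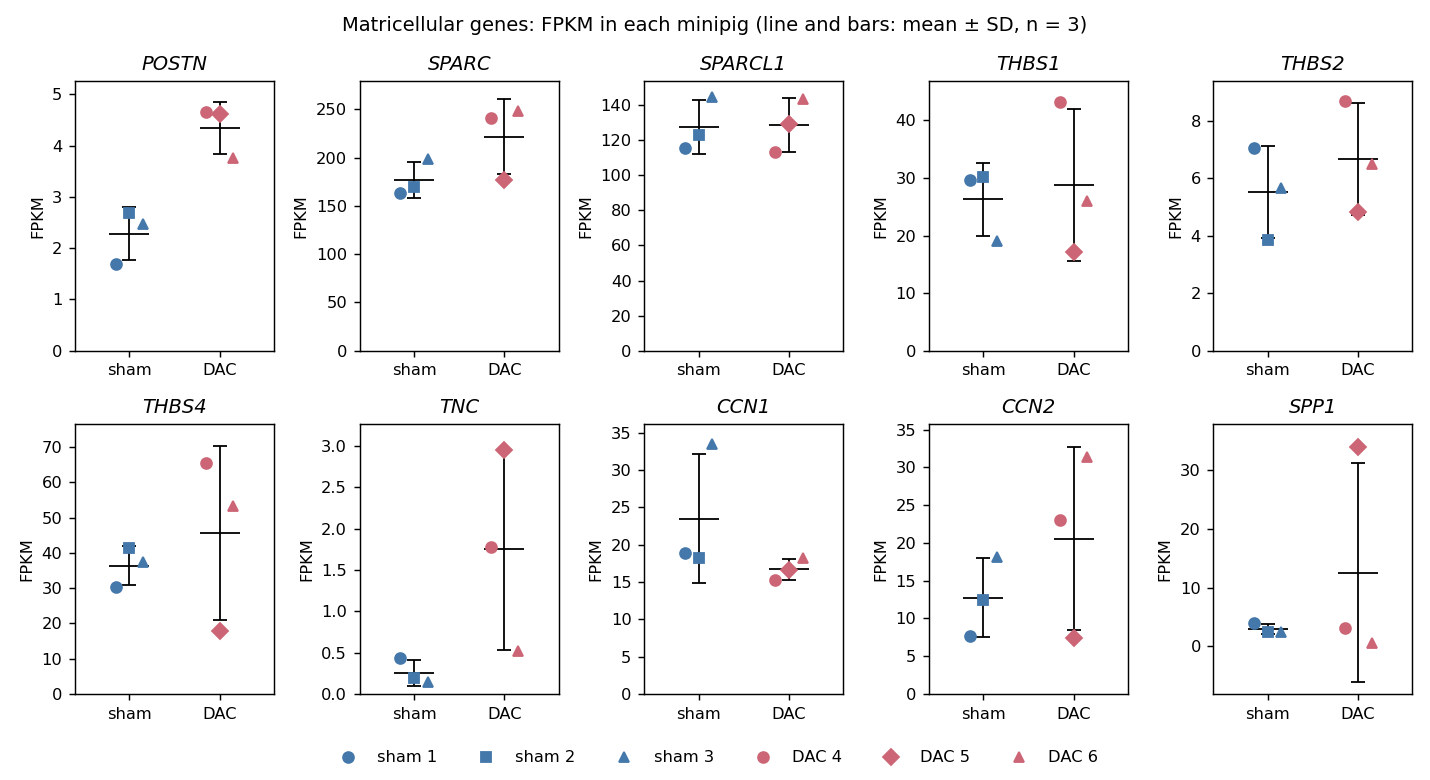
FPKM of the 10 matricellular genes in each minipig, 1 panel per gene with its own linear axis; points are minipigs, and the horizontal line and bars are the group mean and SD (n = 3). *POSTN* and *TNC* are the panels in which the groups do not overlap, and DAC replicate 5 (diamond) lies apart from the other DAC minipigs for *THBS4*, *CCN2*, *SPARC*, and *SPP1*.

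The genes whose profile over the 6 minipigs was closest to that of *POSTN* were *MYOF*, ENSSSCG00000012530, and *VMP1*. Closeness was the root mean square difference of centered log2(FPKM + 1) values, which was 0.117, 0.118, and 0.128, respectively, where the *POSTN* profile itself had a standard deviation of 0.39. *MYOF*, which encodes the membrane repair protein myoferlin, was at 1.53 to 2.73 FPKM in the sham group and 3.36 to 3.81 FPKM in the DAC group. ENSSSCG00000012530, a gene without a symbol, was at 2.64 to 3.33 FPKM and 5.60 to 5.86 FPKM. *VMP1*, a gene of autophagosome formation, was at 4.73 to 6.68 FPKM and 7.32 to 9.75 FPKM. All 3 genes were picked for their likeness to *POSTN* in these same minipigs. That they separate the groups as *POSTN* does follows from this choice and is not a separate result.

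*TNC*, encoding tenascin-C, an anti-adhesive glycoprotein that is scarce in the healthy adult ventricle, was the member with the lowest level. It was at 0.430, 0.194, and 0.140 FPKM in the sham group and at 1.78, 2.95, and 0.516 FPKM in the DAC group. The groups did not overlap, but DAC replicate 6 lay only slightly above sham replicate 1. Because *TNC* reached 1 FPKM in DAC replicates 4 and 5 alone, it did not pass the filter and was not among the 9 members tested. Its mean was 0.255 ± 0.154 FPKM (SD, n = 3) in sham minipigs and 1.75 ± 1.22 FPKM (SD, n = 3) in DAC minipigs, a ratio of 6.87, and the log2 fold change of FPKM + 1 was 1.03. The exact two-sided permutation *P* was 0.10 for *TNC* and for *POSTN*, the smallest that 3 minipigs against 3 can give. In the fit with no filter on the deposited table, 3.27% of the 13288 genes were upregulated DEGs. *TNC* was among them (unadjusted *P* = 0.0148, adjusted *P* = 0.57, limma). With each minipig left out in turn, an alternative chosen after seeing the data, the log2 fold change was from 0.72 to 1.41, and the call was lost without DAC replicate 4 (unadjusted *P* = 0.0508). Among all genes tested, 6.01% had every DAC minipig above every sham minipig. The highest sample of every gene in the deposited table reached a common minimum. All sham values of *TNC* were below this minimum and all DAC values above it, so its listing rested on the DAC group. The separation of the groups and the *P* values of *TNC* are conditional on that listing. The gene lies on chromosome 1 from 255532449 to 255630377 on the minus strand.

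*SPARC* and *SPARCL1* were the most abundant members. *SPARC* encodes osteonectin, a collagen-binding protein needed for the maturation of collagen fibers, and *SPARCL1* encodes its relative hevin. *SPARC* was at 163, 170, and 198 FPKM in the sham group and at 241, 177, and 248 FPKM in the DAC group. DAC replicates 4 and 6 were above all sham minipigs, and DAC replicate 5 was within the sham range. The mean of *SPARC* was 177 ± 18.7 FPKM (SD, n = 3) in sham minipigs and 222 ± 39.1 FPKM (SD, n = 3) in DAC minipigs. Its log2 fold change was 0.31 (95% confidence interval -0.06 to 0.69, unadjusted *P* = 0.0903, adjusted *P* = 0.628, limma). After quantile normalization, the log2 fold change of *SPARC* was 0.43 (unadjusted *P* = 0.0240), which made it an upregulated DEG like 3.79% of all genes in that analysis.

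*SPARCL1* was at 115, 123, and 145 FPKM in the sham group and at 113, 129, and 144 FPKM in the DAC group, so that the groups covered nearly the same range. The log2 fold change of *SPARCL1* was 0.01, with a 95% confidence interval from -0.31 to 0.33 (unadjusted *P* = 0.934). The ratio of *SPARC* to *SPARCL1* within each minipig, a comparison chosen after seeing the values and not tested, was 1.41, 1.38, and 1.37 in the sham group. It was 2.13 in DAC replicate 4, 1.37 in DAC replicate 5, and 1.72 in DAC replicate 6. The position of *SPARCL1* on chromosome 8, from 131387413 to 131431421 on the plus strand, overlaps those of *DMP1* and *DSPP*, genes of bone and tooth matrix on the minus strand. These were listed at 3.53 to 4.22 FPKM and 4.16 to 5.53 FPKM. The sources used here do not say that strand was used in the counting, so reads in the shared stretch cannot be assigned to one of these genes. *SPARC* lies on chromosome 16 from 71357703 to 71381160 on the plus strand and overlaps no listed gene.

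The thrombospondins fall into a trimeric kind (*THBS1* and *THBS2*), which inhibits angiogenesis and, for thrombospondin-1, activates latent TGF-β, and a pentameric kind that includes *THBS4*, a gene of loaded muscle and tendon. *THBS4* was at 30.4, 41.3, and 37.4 FPKM in the sham group and at 65.5, 18.0, and 53.2 FPKM in the DAC group. DAC replicates 4 and 6 were above every sham minipig, and DAC replicate 5 was below every sham minipig. The mean was 36.3 ± 5.50 FPKM (SD, n = 3) in sham minipigs and 45.6 ± 24.7 FPKM (SD, n = 3) in DAC minipigs, and the log2 fold change was 0.14 (95% confidence interval -0.89 to 1.18, unadjusted *P* = 0.756). *THBS4* lies on chromosome 2 from 88726687 to 88780756 on the plus strand.

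*THBS1* was at 29.7, 30.2, and 19.0 FPKM in the sham group and at 43.2, 17.2, and 26.0 FPKM in the DAC group. Here the highest and the lowest of the 6 values were both DAC minipigs. The log2 fold change of *THBS1* was 0.06 (95% confidence interval -0.72 to 0.84, unadjusted *P* = 0.862). *THBS2* was at 7.05, 3.86, and 5.68 FPKM in the sham group and at 8.70, 4.82, and 6.49 FPKM in the DAC group, with overlapping groups, and its log2 fold change was 0.23 (95% confidence interval -0.34 to 0.80, unadjusted *P* = 0.371). None of the 3 thrombospondins was a DEG, and in each of them DAC replicate 4 was the highest of the 6 minipigs and DAC replicate 5 the lowest of the DAC group. *THBS1* lies on chromosome 1 from 131728781 to 131746115 on the minus strand, and *THBS2* on chromosome 1 from 855030 to 882473 on the plus strand.

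*CCN1* (also *CYR61*) and *CCN2* (also *CTGF*) encode integrin and heparan sulfate ligands of the same domain plan, and both are target genes of the coactivators YAP and TAZ. *CCN2*, the one more closely linked with TGF-β and fibrosis, was at 7.71, 12.4, and 18.1 FPKM in the sham group and at 23.0, 7.38, and 31.4 FPKM in the DAC group. DAC replicates 4 and 6 were above every sham minipig, whereas DAC replicate 5 had the lowest value of all. The mean of *CCN2* was 12.8 ± 5.22 FPKM (SD, n = 3) in sham minipigs and 20.6 ± 12.2 FPKM (SD, n = 3) in DAC minipigs, and its log2 fold change was 0.51 (95% confidence interval -0.70 to 1.72, unadjusted *P* = 0.351).

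*CCN1* was the only member whose mean was lower after constriction. It was at 18.8, 18.2, and 33.5 FPKM in the sham group and at 15.2, 16.6, and 18.2 FPKM in the DAC group. Sham replicate 3 was far above the other minipigs, and the remaining values lay close together. The log2 fold change of *CCN1* was -0.42 (95% confidence interval -0.96 to 0.12, unadjusted *P* = 0.111), and it was -0.14 without sham replicate 3. The ratio of *CCN2* to *CCN1*, also chosen after seeing the values, was 0.410, 0.685, and 0.542 in the sham group and 1.51, 0.444, and 1.73 in the DAC group. *CCN1* lies on chromosome 4 from 130392404 to 130395150 on the minus strand, inside the stretch of *ZNHIT6* on the plus strand, which was listed at 2.18 to 2.69 FPKM. Here too, reads in the shared stretch cannot be assigned to either gene alone. *CCN2* lies on chromosome 1 from 31673798 to 31677696 on the plus strand.

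**Figure D2:**
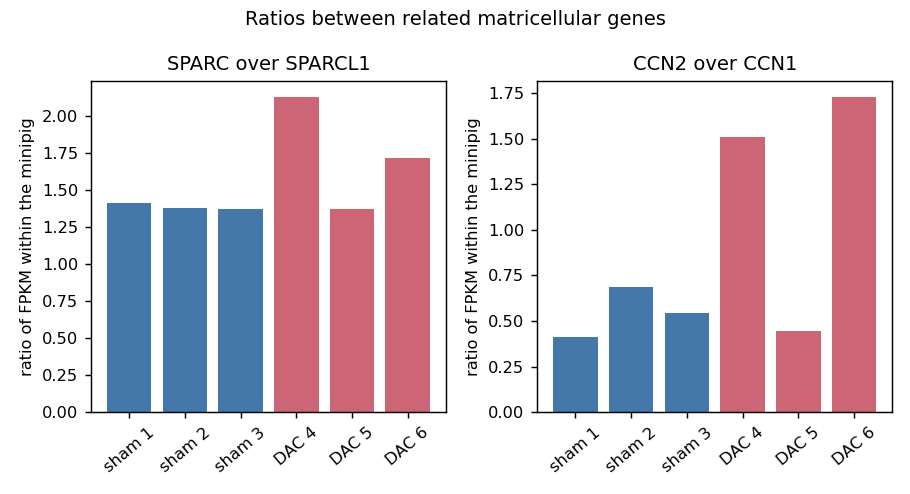
Ratio of FPKM between members of the same family within each minipig, *SPARC* over *SPARCL1* on the left and *CCN2* over *CCN1* on the right; bars start at 0, blue for sham and red for DAC. DAC replicates 4 and 6 have the highest ratios in both panels (2.13 and 1.72, 1.51 and 1.73), and DAC replicate 5 (1.37 and 0.444) lies at the level of the sham minipigs.

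*SPP1*, encoding osteopontin, was the member that varied most within a group. It was at 3.93, 2.51, and 2.41 FPKM in the sham group and at 3.12, 34.0, and 0.543 FPKM in the DAC group. DAC replicate 5 held the highest and DAC replicate 6 the lowest value of all 6 minipigs, a range of 62.6-fold within one group. The log2 fold change of 0.64 had a 95% confidence interval from -1.74 to 3.01 (unadjusted *P* = 0.547), and without DAC replicate 5 it was -0.63. The standard deviation of *SPP1* within the DAC group ranked 2 among the 11029 genes tested. The summed level of 11 leukocyte markers in DAC replicate 5 was 112 FPKM, within the 110 to 140 FPKM of the sham group. Of these markers, 5 were above and 5 below all sham minipigs in DAC replicate 5. *CD68*, a lysosomal macrophage marker, was at 10.4 FPKM there and at 10.1 FPKM in DAC replicate 6, where *SPP1* was lowest, against 4.59 to 7.17 FPKM in the sham group. Also above all sham minipigs in DAC replicate 5 were *PTPRC*, *AIF1*, *CSF1R*, and *CD3E*, at 3.49, 5.11, 22.7, and 0.618 FPKM. The macrophage markers *CD14*, *CD163*, *C1QA*, *C1QB*, and *C1QC* were at 2.53, 7.70, 8.63, 15.9, and 30.3 FPKM there, each below all sham minipigs. *MMP9*, a protease of neutrophils and macrophages, was at 0.590 FPKM in DAC replicate 5 and at no more than 0.0264 FPKM in any other minipig. The part of these cells in the *SPP1* value was not tested. *SPP1* lies on chromosome 8 from 131077786 to 131085340 on the minus strand, 302 kb from *SPARCL1*.

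**Figure D3:**
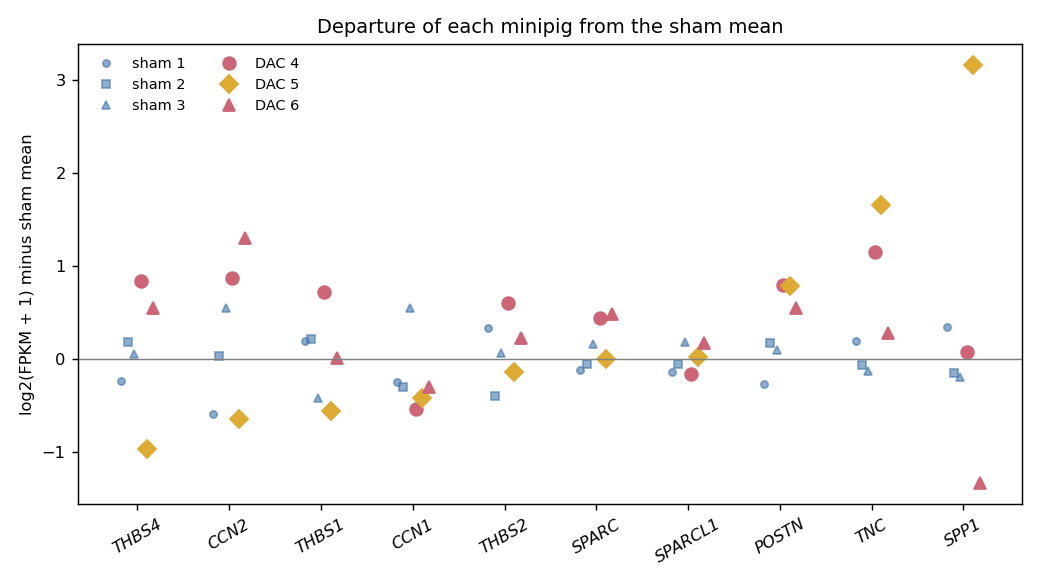
Difference of log2(FPKM + 1) from the mean of the sham group for each minipig and gene, with the genes ordered by the value in DAC replicate 5 (yellow diamonds). DAC replicate 5 lies below the other DAC minipigs for *THBS4*, *CCN2*, *THBS1*, *THBS2*, and *SPARC*, near DAC replicate 4 for *POSTN*, and above both for *TNC* and *SPP1*.

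DAC replicate 5 had the lowest of the 6 values for *THBS1*, *THBS4*, and *CCN2*, and the highest for *TNC* and *SPP1*. DAC replicate 4 was at an extreme in more members, with the highest value in 4 (*POSTN*, *THBS1*, *THBS2*, and *THBS4*) and the lowest in 2 (*SPARCL1* and *CCN1*). Over all genes tested, DAC replicate 5 was the lowest sample in 23.6% and the highest in 14.9%, and DAC replicate 4 in 21.1% and 19.3%. The standard deviation of log2(FPKM + 1) was larger in the DAC than in the sham group for 7 of the 10 members. The same share over all genes tested was not determined, so this count cannot be read as particular to the members. In 4 of the 9 members tested, *SPP1*, *CCN2*, *THBS4*, and *THBS1*, the standard deviation in the DAC group was among the top 5% of all genes tested. *CCN2* was in the top 5% in the sham group as well, at percentile 96.8. The sham percentiles of *THBS1*, *SPP1*, and *THBS4* were 89.9, 84.3, and 72.0. Mitochondrially encoded genes held 32.8% of the summed FPKM in DAC replicate 5, against 27.1% and 27.2% in the other DAC minipigs and 24.0% to 25.3% in the sham minipigs. The summed FPKM itself was also highest in DAC replicate 5, at 308771 against 281377 to 291839 in the other minipigs. The part of the mitochondrial share in the values of other genes was not tested. With the mitochondrially encoded genes left out and the rest rescaled, *POSTN* was again the only DEG among the members (log2 fold change 0.75).

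Without DAC replicate 5, 4 members were upregulated DEGs, among 4.26% of all genes tested. *POSTN* had a log2 fold change of 0.67 (unadjusted *P* = 0.00874) and *SPARC* one of 0.47 (unadjusted *P* = 0.00863). *THBS4* had a log2 fold change of 0.70 (unadjusted *P* = 0.0061) and *CCN2* one of 1.09 (unadjusted *P* = 0.0164). The adjusted *P* of these 4 genes was from 0.477 to 0.531 (limma). *THBS2* (0.42) and *THBS1* (0.37) also had larger log2 fold changes than with all minipigs, but their confidence intervals included 0. *CCN1* stayed at -0.42 and *SPARCL1* at 0.01. This comparison rests on 2 DAC minipigs, and the minipig left out was singled out by its values. Leaving out other minipigs lowered some changes: that of *CCN2* was 0.12 without DAC replicate 6 and 0.22 without sham replicate 1, that of *THBS4* was -0.21 without DAC replicate 4, and that of *SPARC* was 0.22 without DAC replicate 6.

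**Figure D4:**
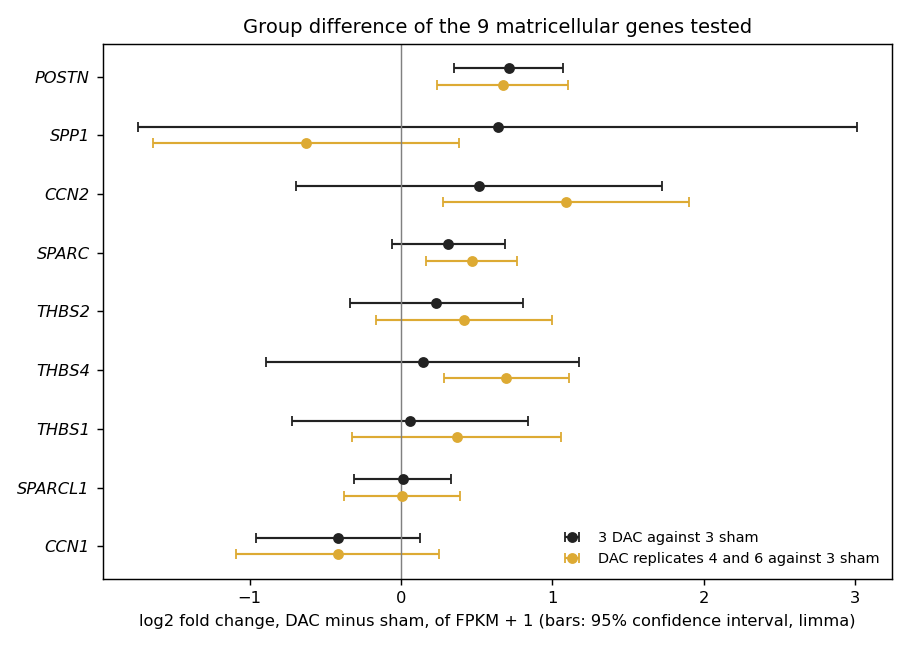
Log2 fold change of FPKM + 1 between DAC and sham for the 9 members tested, with 95% confidence intervals from limma, for all 6 minipigs (black) and without DAC replicate 5 (yellow). The interval of *POSTN* lies above 0 in both analyses, those of *CCN2*, *SPARC*, and *THBS4* only without DAC replicate 5, and the point of *SPP1* changes sign.

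In the sham group the order of the mean levels was *SPARC*, *SPARCL1*, *THBS4*, *THBS1*, *CCN1*, *CCN2*, *THBS2*, *SPP1*, *POSTN*, and *TNC*, from 177 to 0.255 FPKM. The ranges of neighbors in this order overlapped for *THBS1* and *CCN1*, for *THBS2* and *SPP1*, and for *SPP1* and *POSTN*, and were separate for the other pairs, though only barely for *THBS4* and *THBS1* and for *CCN1* and *CCN2*. In the DAC group the first 4 and the last 2 places were the same, while *CCN2* stood before *CCN1* and *SPP1* before *THBS2*. There the neighbors from *THBS4* to *THBS2* all overlapped, so this change of order is within the spread between minipigs. The 10 genes together summed to 378 to 462 FPKM in the sham group and to 519, 411, and 531 FPKM in DAC replicates 4 to 6, which is 0.133% to 0.184% of all FPKM.

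Among 16 other genes of the same families, 10 were listed and 9 tested, and 1 was a DEG. This was *SPOCK2*, a proteoglycan of the SPARC family, which fell from 12.5 ± 5.29 FPKM (SD, n = 3) in sham minipigs to 4.22 ± 1.89 FPKM (SD, n = 3) in DAC minipigs. The log2 fold change of *SPOCK2* was -1.35 (unadjusted *P* = 0.0103, adjusted *P* = 0.505, limma), and downregulated DEGs made up 5.27% of all genes tested. The median log2 fold change was 0.08 over these 9 genes, 0.23 over the 9 members tested, and -0.02 over all genes tested.

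Of 25 receptors and binding partners of the members, 21 were tested, with 1 upregulated and 1 downregulated DEG and a median log2 fold change of 0.09. *CD44*, a receptor for hyaluronan and osteopontin, rose from 4.76 ± 0.432 to 6.42 ± 0.429 FPKM (SD, n = 3 each, unadjusted *P* = 0.0112). *SDC3*, a heparan sulfate proteoglycan of the cell surface, fell from 10.1 ± 1.92 to 6.40 ± 0.936 FPKM (SD, n = 3 each, unadjusted *P* = 0.0109). Integrin αV (*ITGAV*), through which periostin and osteopontin bind cells, was at 10.3 to 11.2 FPKM in the sham group and 11.7 to 13.3 FPKM in the DAC group. These ranges do not overlap (log2 fold change 0.21, unadjusted *P* = 0.0720, limma), and 6.01% of all genes tested were likewise higher in every DAC minipig. In either direction, the groups did not overlap for 4 of the 21 genes of this list and for 1646 of all 11029 genes tested.

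Of 10 tested fibrillar matrix and protease genes that the members bind or are processed by, 5 were upregulated DEGs, against 3.25% of all genes tested. None was downregulated, and the median log2 fold change was 0.32. The 5 DEGs were collagen genes and *FN1*, and no protease tested was a DEG. The study named several of these genes for their change in the same samples, so the list is not independent of them. *COL1A2*, a chain of type I collagen, rose from 73.3 ± 7.05 to 110 ± 2.05 FPKM (SD, n = 3 each, unadjusted *P* = 0.000805), and *COL1A1* from 94.0 ± 13.4 to 165 ± 26.4 FPKM (SD, n = 3 each, unadjusted *P* = 0.00158). *FN1*, encoding fibronectin, rose from 21.5 ± 5.29 to 43.1 ± 9.13 FPKM (SD, n = 3 each, unadjusted *P* = 0.0029). *COL3A1* rose from 173 ± 13.3 to 238 ± 15.6 FPKM (SD, n = 3 each, unadjusted *P* = 0.00349). *COL5A1*, which was not a DEG, was at 32.4 to 45.9 FPKM in the sham group and at 51.3, 34.1, and 59.1 FPKM in DAC replicates 4 to 6.

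Of 19 genes of the TGF-β, YAP/TEAD, and SRF pathways, which regulate transcription of several members, 2 were upregulated DEGs and none was downregulated, with a median log2 fold change of 0.04. *TGFB3*, a TGF-β ligand, rose from 2.35 to 3.86 FPKM on average, with 1.92 to 2.64 FPKM in the sham group and 2.77 to 4.73 FPKM in the DAC group (unadjusted *P* = 0.0227). *TGFBR3*, encoding betaglycan, rose from 7.33 ± 0.333 to 9.51 ± 0.966 FPKM (SD, n = 3 each, unadjusted *P* = 0.0188). Among 15 tested YAP/TAZ target genes other than *CCN1* and *CCN2*, *MYOF* and *AXL*, a receptor tyrosine kinase, were upregulated DEGs (unadjusted *P* = 0.0113 and 0.0377) and none was downregulated. The median log2 fold change was 0.10. Of 16 immediate early genes tested, 1 was an upregulated and 1 a downregulated DEG, with a median of -0.15. *NR4A3*, an orphan nuclear receptor, rose from 19.3 ± 8.06 to 53.9 ± 16.8 FPKM (SD, n = 3 each, unadjusted *P* = 0.00256), and *FOSL2* fell from 42.7 ± 5.21 to 26.8 ± 3.21 FPKM (SD, n = 3 each, unadjusted *P* = 0.00188).

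Markers of cell types were compared as a check of the tissue. Cardiomyocyte genes were the most abundant, with 9 of 12 markers listed and a summed level of 15636 to 16777 FPKM in the sham group and 15043 to 18087 FPKM in the DAC group. Of these 9 genes, *RYR2*, the calcium release channel, was a downregulated DEG (unadjusted *P* = 0.0464). Of 10 fibroblast markers tested, 4 were upregulated DEGs (*LUM* and the 3 collagen genes also counted above), while *DCN*, *PDGFRA*, and *TCF21* had log2 fold changes of -0.01, 0.24, and -0.02 and were not DEGs. Endothelial markers summed to 181 to 258 FPKM in the sham group and 158 to 235 FPKM in the DAC group, lowest in DAC replicate 5, with *CLDN5* and *VWF* downregulated and *KDR* upregulated among 10 (unadjusted *P* = 0.00483, 0.0122, and 0.0395). Smooth muscle and pericyte markers summed to 232 to 269 FPKM and 237 to 283 FPKM, with *CNN1* upregulated and *SMTN* downregulated among 10 (unadjusted *P* = 0.0252 and 0.0448). Leukocyte markers summed to 110 to 140 FPKM and 101 to 166 FPKM, with *CD163* downregulated among 10 tested (unadjusted *P* = 0.0124). Platelet and red cell markers summed to 19.2 to 45.8 FPKM and 14.2 to 46.6 FPKM, with no DEG among 3 tested. The smallest *P* of these was that of *GP1BB*, a platelet glycoprotein (0.597). The defining marker listed at 0 in a minipig was *ALAS2*, of red cells, in DAC replicate 5. The part of cell composition in the differences of the matricellular genes was not tested.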

How the data were processed

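The authors deposited one table of FPKM with a column for each of the 6 minipigs, made from paired-end Illumina reads of NEBNext Ultra libraries. HISAT2 and susScr11 are named in the submitters' processing notes; the program that made the values is not given in the sources used here. The highest sample of every listed gene had at least 0.500 FPKM. The depth is unknown, so precision rests on the spread between minipigs. The limma p-values rest on that spread, moderated toward the spread of all genes tested at a similar level. Symbols missing from the table were filled for 520 genes by identifier. Positions of all 10 members overlapped those in RefSeq Sscrofa11.1.

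Log2(FPKM + 1) was fitted in R 4.3.3 with limma 3.58.1 (moderated test with a trend), for genes that reached 1 FPKM in 3 or more of the 6 samples. The fit was tested on simulated data. Figures used matplotlib 3.10.9. Alternative settings were a fit with no filter on the deposited table, a minimum of 5 FPKM, and a pseudocount of 0.1. Further settings were median scaling, quantile normalization, mitochondrially encoded genes left out, gene-wise variance, sample weights, and each sample left out. Named genes were all members, up to 4 DEGs with the smallest *P* per list (without a DEG, the gene with the smallest *P*), and the 3 genes closest in profile to a member that was a DEG. *ITGAV*, *COL5A1*, *CD68*, *PTPRC*, *AIF1*, *CSF1R*, *CD3E*, *CD14*, *C1QA*, *C1QB*, *C1QC*, *MMP9*, *DCN*, *PDGFRA*, *TCF21*, *ALAS2* and the overlapping genes were named outside this rule, after their values were seen. Members and lists were chosen with earlier results of these data known.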

Additional observations from a re-analysis of the deposited data

How the results depend on the processing

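No paired analysis was possible because the study assigned the minipigs at random to separate groups, and the labels give no pairing. The number of members called was 1 with all minipigs and 2 after quantile normalization (*SPARC* added). It was 0 with a minimum of 5 FPKM, where *POSTN* is not tested, and between 1 and 4 with 1 minipig left out. With no filter it was 2 (*TNC* added), but the call of *TNC* is conditional on its listing, which rested on the DAC group. The number of all DEGs was 579 of 6271 genes with a minimum of 5 FPKM and between 600 and 1029 with 1 minipig left out, lowest without sham replicate 1. Upregulated and downregulated DEGs were 358 and 581 as deposited, 429 and 479 after median scaling, 502 and 408 with mitochondrially encoded genes left out, 418 and 469 after quantile normalization, and 470 and 485 without DAC replicate 5. The median log2 fold change of all genes tested stayed between -0.037 and 0.020. Signs turned only for members that were not called, and the cause was not tested. With 1 minipig left out, the log2 fold change of *SPARCL1* was between -0.070 and 0.10, of *THBS1* between -0.27 and 0.37, of *THBS4* between -0.21 and 0.70, of *SPP1* between -0.63 and 1.62, of *CCN2* between 0.12 and 1.09, of *THBS2* between 0.034 and 0.42, of *SPARC* between 0.22 and 0.47, and of *CCN1* between -0.57 and -0.14. Of the 22 called genes of the other lists, none turned its sign, and 42 of 306 repeated values lost the call, 31 of these with 1 minipig left out.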

Other observations

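The genes closest in profile to the other members were taken by the same measure, after the values were seen and without a test. Likeness to the member is how they were chosen, so it is not a separate result. Those of *SPARC*, *SPARCL1*, *THBS1*, and *CCN1* are not described here. For *TNC*, the closest was *BGN*, encoding the matrix proteoglycan biglycan, at 25.6 to 31.5 FPKM in the sham group and at 67.5, 67.2, and 34.0 FPKM in DAC replicates 4 to 6. DAC replicate 6 lay nearest to the sham minipigs, as for *TNC*, which follows from the choice of *BGN* by its profile. For *THBS2*, the closest was *DACT1*, an inhibitor of Wnt signaling, with a root mean square difference of 0.069 on the log2 scale. *DACT1* was at 6.80, 3.84, and 5.94 FPKM in the sham group and at 9.93, 5.03, and 6.49 FPKM in the DAC group. Among the 3 closest to *CCN2* was *ITGA11*, a collagen-binding integrin of fibroblasts, at 1.88, 2.40, and 3.41 FPKM in the sham group and at 4.42, 1.09, and 5.07 FPKM in the DAC group. Among the 3 closest to *THBS4* was *SOX18*, an endothelial transcription factor, at 18.2 to 23.5 FPKM in the sham group and at 31.7, 13.2, and 36.4 FPKM in the DAC group.

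No gene followed *SPP1* closely: the smallest root mean square difference was 0.65, against 1.38 for the spread of the *SPP1* profile. Among the 3 closest were *NMNAT2* and *APOE*, which also had their highest value in DAC replicate 5. *NMNAT2*, of NAD synthesis, was at 60.2 FPKM there and at 5.27 to 19.7 FPKM in the other minipigs. *APOE*, a lipid carrier of macrophages and other cells, was at 7.57 FPKM against 0.601 to 2.94 FPKM.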
